A study of Mus musculus with 12 samples.

Results

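The genes examined here encode the nuclear subunits of the mitochondrial respiratory chain and ATP synthase, with the cytochrome c gene and the complex I assembly factors that share the Nduf name. Members were chosen by name alone, as protein-coding genes whose symbols start with Nduf, Uqcr, Atp5 or Cox4 to Cox8, plus Sdha, Sdhb, Sdhc, Sdhd, Cyc1 and Cycs, and pseudogene names were left out. Of 96 such genes in the counts table, 89 had a log2 CPM (counts of a gene scaled to library size) above 0 in at least 2 of the 12 libraries, and these 89 are among the 14079 genes tested. The 7 members that were not tested were Cox4i2, Cox6a2, Cox6b2, Cox7b2, Cox8b, Cox8c and Ndufa4l2, isoforms known mainly from other tissues or conditions. The highest of them was Cox6a2, the muscle form of a complex IV subunit, with a mean of 0.277 CPM, and Cox8b, Cox8c and Ndufa4l2 had no count in any library. The lowest tested members were Cox7a1 and Atp5g2, with means of 0.898 and 1.15 CPM. The symbol Atp5o is carried by 2 of the tested identifiers.

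RNA sequencing had been done on Sp37A3 cells, a dendritic cell line derived from the spleen of a C57BL/6 mouse and grown with GM-CSF and M-CSF, growth factors for myeloid cells. The CtrV line had received an empty lentiviral vector. The EKO line had received CRISPR/Cas9 against Siglece by lentivirus, and it is a pool of several clones screened for Siglec-E, an inhibitory receptor that binds sialic acid. All cells were stimulated with lipopolysaccharide (LPS), a bacterial activator of dendritic cells, with 24 h of processing time, either after a pulse of the antigen ovalbumin (OVA) or unpulsed (ut). The 4 groups, CtrV_ut, CtrV_OVA, EKO_ut and EKO_OVA, had 3 libraries each, with 27116201 to 39698572 counts per library. The labels do not say whether these came from separate cultures, so the tests measure the spread between these libraries. Each line is 1 cell population, and the Siglece edit, the choice of clones and any drift of the lines cannot be told apart.

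Complexes I and II take electrons from NADH and succinate, complex III passes them to cytochrome c, complex IV hands them to oxygen, and complex V, the ATP synthase, uses the proton gradient built by complexes I, III and IV to make ATP. Each complex joins a catalytic core with many smaller subunits, and the core of complexes I, III, IV and V is encoded in part by mitochondrial DNA. In dendritic cells, activation by LPS is known for a shift of energy metabolism towards glycolysis.

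Siglece, the targeted gene, was counted first. It stood at 153, 150.0 and 162 CPM in CtrV_ut, 152, 153 and 163 in CtrV_OVA, 166, 221 and 235 in EKO_ut and 174, 208 and 202 in EKO_OVA. Every EKO-labelled library lay above every CtrV library, with log2 fold changes of 0.31 ± 0.084 (SE) with OVA and 0.41 ± 0.084 without (adjusted p = 0.0106 and 0.00261, edgeR quasi-likelihood test). Siglece mRNA was therefore not lower in the libraries labelled knockout, and a count over the whole gene does not show an edit of a few bases. The study describes the pooled clones as having little or no Siglec-E expression, which it measured as protein. Dendritic markers were detected in all libraries (12 of 12 tested, with sums of 21841 to 23872 CPM in CtrV and 21465 to 23896 CPM in EKO). Cd74 made up most of these sums (means of 17024 CPM in CtrV and 15545 CPM in EKO), and single markers differed. Cd83 had means of 5.92 and 62.4 CPM, Irf8 92.9 and 219, Batf3 3.34 and 9.57 and Flt3 1.57 and 4.24. Itgax (992 and 845 CPM), Cd74 and Zbtb46 (68.4 and 66.2 CPM) were lower in EKO, and the rest of the list was higher. Markers of T, B, NK, neutrophil, fibroblast and erythroid cells summed to at most 1.07 CPM. The 4 macrophage markers summed to 691 to 804 CPM in CtrV and 791 to 888 CPM in EKO, which overlap. Means in CtrV and EKO were 61.6 and 147 CPM for Fcgr1 and 29.1 and 40.2 CPM for Cd68. Adgre1, which made up most of the sum, had means of 643 and 636 CPM and Mertk 2.82 and 2.29 CPM, both lower in EKO. The epithelial list summed to 577 to 658 CPM in CtrV and 179 to 207 CPM in EKO, almost all of it Cdh1, which encodes E-cadherin and is also expressed by some dendritic cells. Dendritic, macrophage and epithelial markers that differ between the lines move with every difference given here, and their part in them was not tested. Among the libraries, CtrV_ut replicate 3 stood apart in the summed CPM of the members, at 8106, against 7069 to 7498 in the other 5 CtrV libraries. Over all tested genes, replicate 1 was the most distant library in both EKO groups. Its chi-square per degree of freedom against replicates 2 and 3 was 38.3 and 45.3 in EKO_ut and 42.2 and 26.2 in EKO_OVA. Between replicates 2 and 3 it was 7.50 and 11.8.

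Between the lines, respiratory chain mRNAs differed by small amounts and mostly downwards in EKO cells. With OVA, 33 of the 89 members passed an adjusted p under 0.05 (37.1%, against 47% of all genes tested), of which 6 rose (25.1% of all genes rose) and 27 fell (21.9% of all genes fell). The share of members that changed was thus below that of all genes, the share that rose was well below it, and the share that fell was 27 of 89 against 21.9%. The median log2 fold change of the 89 members was -0.09, or 6.13% lower, against 0.00 for all genes, and 62 members had a negative and 27 a positive value. Without OVA, 37 members passed (41.6%, against 46.4% of all genes), 4 of which rose and 33 fell (24.5% and 21.9% of all genes), and the median was -0.12, or 7.79% lower. This median was -0.06 without CtrV_ut replicate 3, and its SD over the 3 replicate pairs was 0.113, about as large as the median itself. The median size of a member's difference, without its sign, was 0.144 with OVA, against 0.209 over all genes. These counts depended on single libraries. With OVA, 14 of 89 members fell without EKO_OVA replicate 3, where 2408 of all 14079 genes fell. When CtrV_OVA replicate 2 was left out, 17 members and 2536 of all genes fell. In both fits the share of members that fell was near that of all genes. The number that rose with OVA was 3 without CtrV_OVA replicate 3 (2874 of all genes), 3 without EKO_OVA replicate 1 (2910) and 10 without CtrV_ut replicate 3 (3712). Without OVA, 21 members fell without EKO_ut replicate 3 (2485 of all genes). There, 7 rose and 23 fell without CtrV_ut replicate 3 (3142 and 2779 of all genes). The unpulsed count of 4 rising members was 2 when any of 8 single libraries was left out.

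**Figure D1:**
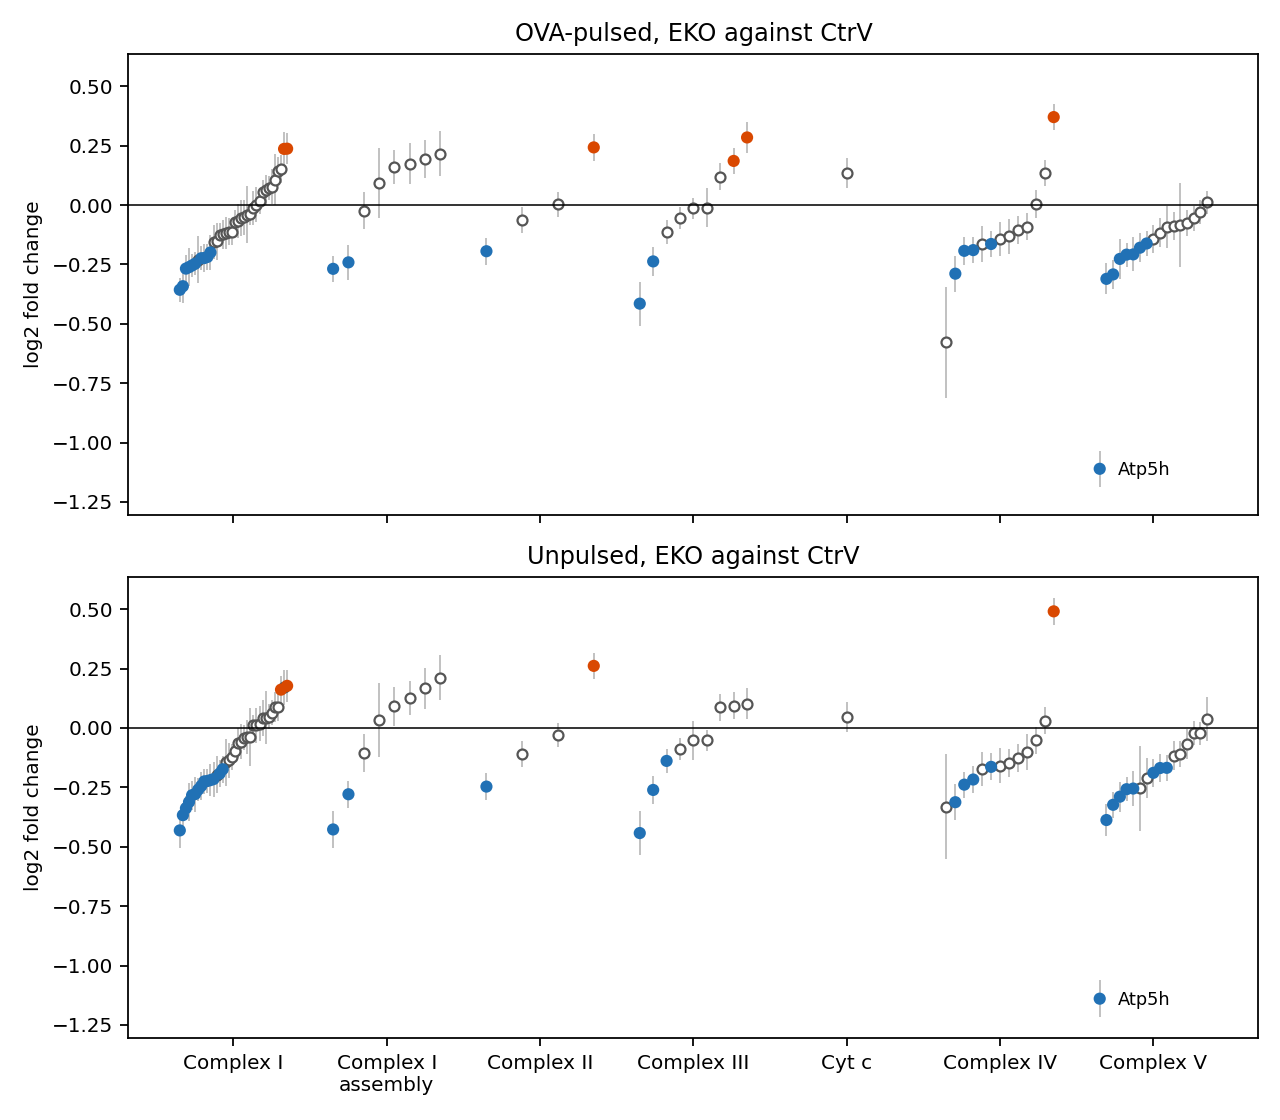
Log2 fold change of each member between EKO-labelled and CtrV cells (y axis), by complex (x axis), in OVA-pulsed and unpulsed cells, with 88 of the 89 tested members shown and Atp5s, which belongs to no complex here, left out. Filled points passed an adjusted p under 0.05 and open points did not, and Atp5h of complex V lies far below the rest at -1.11 and -1.14.

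The OVA-pulsed and the unpulsed comparison use different libraries, but these are linked. Over all tested genes, same-numbered pulsed and unpulsed EKO libraries shared deviations from their group means (correlations of 0.706, 0.351 and 0.411 for replicates 1 to 3). In CtrV these correlations were 0.077, 0.179 and 0.373. Agreement between the 2 comparisons is therefore not independent support. In both comparisons, 3 members passed as higher, Sdhd, Ndufa4 and Ndufs8, and 25 passed as lower. No member (0) passed in opposite directions, 5 passed with OVA alone, 9 without OVA alone and 47 in neither. Of all genes, 21.3% passed as higher in both states, 18.1% as lower in both and 45.9% in neither. The 28 shared calls make up 84.8% of those with OVA and 75.7% of those without, against 83.8% and 84.8% for all genes. Under every alternative fit tried at the same threshold, 13 members kept their call in both states, Sdhd (higher) and Ndufa1, Ndufa6, Ndufa13, Ndufb11, Ndufv3, Ndufaf7, Uqcr11, Uqcrh, Atp5g3, Atp5h, Atp5j2 and Atp5k (lower). In terms of library values, every EKO library lay above every CtrV library for 12 members with OVA (27% of all genes) and below for 40 (25.9% of all genes). Without OVA these counts were 3 (24.1% of all genes) and 35 (22.9% of all genes). Over all 12 libraries, Sdhd was the only member whose 6 EKO values lay above all 6 CtrV values (18.9% of all genes did), and 27 members lay below (16.6% of all genes did). Averaged over pulsing, 54 members passed (60.7%, against 60.5% of all genes), with 12 higher (31.3% of all genes) and 42 lower (29.1% of all genes), and with upper-quartile scaling 6 were higher and 52 lower (26.9% and 35.3% of all genes, whose median then was -0.05). The averaged count of rising members was 7 without CtrV_ut replicate 2 or EKO_OVA replicate 2. The averaged fit treats the pulsed and unpulsed libraries of a line as separate. Its replicate term is common to both lines and does not model sharing within a line. The averaged calls and the counts over all 12 libraries may thus rest on fewer independent samples than libraries.

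Complex I oxidises NADH. Of its 36 tested subunits, 2 rose and 10 fell with OVA (5.56% and 27.8%, against 25.1% and 21.9% of all genes, median -0.09). Without OVA, 2 rose and 14 fell (5.56% and 38.9%, against 24.5% and 21.9%, median -0.11). Ndufa6, a small accessory subunit (ENSMUSG00000022450, chromosome 15, 82350140 to 82354322 on GRCm38), was measured at 53.6, 54.8 and 61.0 CPM in CtrV_ut and 55.2, 58.3 and 56.5 CPM in CtrV_OVA. In EKO_ut it was 42.0, 43.3 and 46.0 CPM, and in EKO_OVA 42.7, 45.6 and 44.6 CPM. The groups did not overlap, and all 6 EKO libraries lay below all 6 CtrV libraries. The log2 fold change was -0.36 ± 0.050 with OVA (adjusted p = 0.000197, edgeR) and -0.37 ± 0.051 without (adjusted p = 0.000182, edgeR), which is 21.9% and 22.5% lower.

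Ndufv3, an accessory subunit of the NADH-binding arm, had 37.5, 35.7 and 43.6 CPM in CtrV_ut and 36.0, 37.2 and 38.2 CPM in CtrV_OVA, against 31.2, 27.0 and 28.5 CPM in EKO_ut and 31.3, 27.5 and 29.1 CPM in EKO_OVA. Again no EKO library reached the lowest CtrV library. The log2 fold change was -0.34 ± 0.072 with OVA (adjusted p = 0.00286, edgeR) and -0.43 ± 0.073 without (adjusted p = 0.000731, edgeR). Ndufa1, Ndufa13 and Ndufb11, accessory subunits of the membrane arm or its junction, had log2 fold changes of -0.27, -0.25 and -0.25 with OVA and -0.24, -0.34 and -0.26 without, all with an adjusted p of at most 0.00599 (edgeR). Ndufa11, Ndufa12, Ndufb5, Ndufb8 and Ndufs6 also fell in both states. Of these, the OVA call of Ndufa12 was lost under 11 of 24 alternative fits (adjusted p up to 0.141) and its unpulsed call under 2 (up to 0.0576), the OVA call of Ndufs6 under 3 (up to 0.108), the unpulsed call of Ndufb5 under 3 (up to 0.101), and those of Ndufa11 with OVA (0.0684) and Ndufb8 without (0.0516) under 1 each. All of these but Ndufb8 lost the call without replicate 3 of the EKO group compared.

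The subunit with the opposite direction in both states was Ndufs8, a core subunit that carries iron-sulfur clusters. Its values were 79.8, 75.0 and 79.4 CPM in CtrV_OVA and 92.3, 91.8 and 92.1 CPM in EKO_OVA, where the groups did not overlap. Unpulsed, they were 77.7, 75.1 and 90.5 CPM in CtrV_ut and 87.9, 96.3 and 90.5 CPM in EKO_ut, where CtrV_ut replicate 3 lay within the EKO range. The log2 fold changes were 0.24 ± 0.066 and 0.18 ± 0.066 (adjusted p = 0.0128 and 0.0486, edgeR). The call with OVA was lost without CtrV_OVA replicate 2 or 3 or EKO_OVA replicate 1 or 2 (adjusted p up to 0.0780), and the call without OVA was lost under most settings (up to 0.225 without EKO_ut replicate 2). Ndufs4, an accessory subunit of the NADH-binding arm, rose with OVA (0.24 ± 0.072, adjusted p = 0.0205, edgeR), and its value without OVA was 0.17 ± 0.073 (adjusted p = 0.0776). The call of Ndufs4 was lost without CtrV_OVA replicate 1 or 3 or EKO_OVA replicate 1 or 2 (adjusted p up to 0.0891). Ndufa9 had 0.15 ± 0.056 with OVA (adjusted p = 0.0527, edgeR) and rose without it (0.16 ± 0.056, adjusted p = 0.0358), a call lost without any of 8 single libraries (up to 0.158 without CtrV_ut replicate 2).

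Grouped by role, after the values had been seen, the 7 nuclear core subunits, which carry the flavin, the iron-sulfur clusters and the quinone site, had 1 member higher (Ndufs8) and 0 lower with OVA. Of the 29 other subunits 1 rose and 10 fell, with a median of -0.12. Over all genes, 25.1% rose and 21.9% fell with OVA, and 24.5% rose and 21.9% fell without. Without OVA the core had 1 higher and 1 lower (Ndufs7, -0.17, a call lost without any of 5 single libraries), and the others had 1 higher and 13 lower, with a median of -0.14. Whether the core and the other subunits differ was not tested. The core had a median of -0.04 with OVA, with values from -0.12 (Ndufs3) to 0.24 (Ndufs8), and a median of 0.01 without. Ndufs1, Ndufv1 and Ndufv2, all core subunits, had log2 fold changes between -0.07 and 0.08 with OVA, none with an adjusted p below 0.262 (edgeR). The core subunits Ndufs3 and Ndufs7 had -0.12 and -0.11 with OVA, near the median of the other subunits. The 8 complex I assembly factors had a positive median (0.13 with OVA, 0.06 without), and 2 of them fell in both states (18.1% of all genes did). These were Ndufaf7, a protein methyltransferase (-0.27 ± 0.055 with OVA, -0.28 ± 0.056 without, adjusted p = 0.00239 and 0.00213, edgeR), and Ndufaf8 (-0.24 ± 0.075 and -0.43 ± 0.077, adjusted p = 0.0224 and 0.00111), whose call with OVA was lost without any CtrV_OVA replicate or without EKO_OVA replicate 2 or 3 (up to 0.105).

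Complex II is succinate dehydrogenase, the enzyme shared by the chain and the tricarboxylic acid (TCA) cycle, and all 4 of its subunits were tested. Sdhd and Sdhc encode the pair of membrane anchors that bind haem and quinone, and they moved in opposite directions. Sdhd (ENSMUSG00000000171, chromosome 9, 50596357 to 50603812) had 145, 148 and 167 CPM in CtrV_ut and 149, 149.7 and 151 CPM in CtrV_OVA, against 181, 188 and 182 CPM in EKO_ut and 182, 171 and 180.4 CPM in EKO_OVA. The lowest EKO library was above the highest CtrV library, CtrV_ut replicate 3. Sdhd rose by 0.24 ± 0.055 on the log2 scale with OVA and 0.26 ± 0.055 without (adjusted p = 0.00438 and 0.003, edgeR), or by 18.3% and 19.9%. Sdhc had 46.5, 44.5 and 50.5 CPM in CtrV_ut, 46.8, 44.8 and 43.5 in CtrV_OVA, 42.6, 37.3 and 39.5 in EKO_ut and 40.6, 38.7 and 38.8 in EKO_OVA. No EKO library overlapped the CtrV libraries, although the gap between EKO_ut replicate 1 and CtrV_OVA replicate 3 was narrow. Its log2 fold changes were -0.19 ± 0.057 and -0.25 ± 0.057 (adjusted p = 0.0164 and 0.00494, edgeR), and the call with OVA was lost without CtrV_OVA replicate 1 or 2 or EKO_OVA replicate 1 or 3 (up to 0.0725). The catalytic subunits Sdha (flavoprotein) and Sdhb (iron-sulfur protein) had log2 fold changes of 0.00 ± 0.051 and -0.06 ± 0.055 with OVA (adjusted p = 0.965 and 0.37, edgeR).

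Complex III, the cytochrome bc1 complex, had 9 tested subunits, of which 2 rose and 2 fell with OVA (22.2% each, near the shares of all genes). Without OVA, 0 of its subunits rose and 3 fell (0% and 33.3%, against 24.5% and 21.9% of all genes). Uqcr11, its smallest subunit (ENSMUSG00000020163, chromosome 10, 80402997 to 80406830), stood at 32.8, 31.0 and 41.3 CPM in CtrV_ut and 30.5, 33.4 and 35.1 CPM in CtrV_OVA, and at 28.1, 24.4 and 24.6 CPM in EKO_ut and 25.3, 23.7 and 25.3 CPM in EKO_OVA. All EKO values were below all CtrV values, and CtrV_ut replicate 3 was the highest of all. The log2 fold changes were -0.41 ± 0.093 and -0.44 ± 0.094 (adjusted p = 0.00395 and 0.00296, edgeR), the next largest fall of a member after Atp5h among those that passed. Uqcrh, the hinge protein that helps cytochrome c bind, fell by 0.24 and 0.26 on the log2 scale. Uqcr10 fell without OVA alone (-0.14), and its call was lost under 18 of 24 alternative fits. Uqcrq, a small accessory subunit, rose with OVA, from 67.4, 64.6 and 69.6 CPM to 74.0, 81.7 and 91.1 CPM, with no overlap (0.28 ± 0.065, adjusted p = 0.00454, edgeR). Unpulsed, Uqcrq overlapped between the lines, at 67.1, 68.8 and 84.6 CPM in CtrV_ut and 70.7, 81.6 and 83.6 CPM in EKO_ut (0.10 ± 0.065, adjusted p = 0.233, edgeR). Uqcrfs1, the Rieske iron-sulfur protein, also rose with OVA (0.19 ± 0.056, adjusted p = 0.0196) and had 0.09 ± 0.056 without (adjusted p = 0.237, edgeR), and its call was lost without any CtrV_OVA replicate or without EKO_OVA replicate 1 (up to 0.113). The difference between the pulsed and the unpulsed value was itself tested and passed for neither Uqcrq (0.18 ± 0.092) nor Uqcrfs1 (0.10 ± 0.080), with adjusted p of 1 for both (edgeR). Cyc1, the cytochrome c1 gene, had -0.01 ± 0.044 with OVA, and Cycs, which encodes cytochrome c, had 0.14 ± 0.063 (adjusted p = 0.821 and 0.103, edgeR).

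In complex IV, cytochrome c oxidase, all nuclear subunits surround a catalytic core made from mitochondrial DNA. Of 13 tested, 1 rose and 4 fell in each state (7.69% and 30.8%, median -0.14 with OVA and -0.16 without). Over all genes, 25.1% rose and 21.9% fell with OVA, and 24.5% rose and 21.9% fell without. The riser was Ndufa4, which carries a complex I name but is now assigned to complex IV. It had 32.2, 33.3 and 41.2 CPM in CtrV_ut, 30.2, 36.1 and 40.9 in CtrV_OVA, 41.5, 52.0 and 56.8 in EKO_ut and 39.7, 47.2 and 51.3 in EKO_OVA. Within each group replicate 1 was the lowest and replicate 3 the highest, so that the OVA-pulsed groups overlapped while each same-numbered pair was higher in EKO. In the fit with replicate number as a covariate the log2 fold change was 0.37 ± 0.056 with OVA and 0.49 ± 0.056 without (adjusted p = 0.000317 and 4.94e-05, edgeR), the largest rise among the members. Without the replicate number in the fit, the OVA call of Ndufa4 was lost (adjusted p = 0.0693) and the unpulsed call held (0.0202). Cox7b, Cox6b1, Cox7a2 and Cox8a fell in both states. Of 24 alternative fits, the call of Cox7a2 was lost under 4 with OVA and 8 without (adjusted p up to 0.0808 and 0.178), that of Cox6b1 under 3 and 2 (up to 0.0979 and 0.0550) and that of Cox8a under 5 with OVA (up to 0.110), in each case also without replicate 3 of the EKO group compared. Cox7b, a small structural subunit, had 99.5, 109 and 109 CPM in CtrV_OVA and 84.2, 90.4 and 85.0 CPM in EKO_OVA, with no overlap and -0.29 ± 0.076 (adjusted p = 0.00973, edgeR, and 0.0555 without EKO_OVA replicate 3). Cox4i1, the most abundant complex IV mRNA per kilobase, had -0.10 ± 0.058 with OVA and -0.05 ± 0.058 without (adjusted p = 0.159 and 0.491, edgeR). Cox7a1, the muscle and heart isoform, had the most negative value of the complex with OVA (-0.58 ± 0.23) at under 1.5 CPM in all libraries, and did not pass (adjusted p = 0.0631, edgeR).

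Of the 17 tested members of complex V, 0 rose and 8 fell with OVA (47.1% fell, against 21.9% of all genes), and 0 rose and 9 fell without (52.9% fell, against 21.9%), with medians of -0.14 and -0.19. The falls without OVA included Atp5j and both identifiers that carry the symbol Atp5o (ENSMUSG00000022956 and ENSMUSG00000116933). These calls were lost under 8, 7 and 9 of 24 alternative fits. Averaged over pulsing, all 17 had a negative value and 11 passed (64.7%, against 60.5% of all genes in either direction and 29.1% lower). The outlying member was Atp5h, which encodes subunit d of the peripheral stalk that holds the catalytic head in place (ENSMUSG00000034566, chromosome 11, 115415689 to 115419962). Atp5h had 31.8, 31.1 and 37.1 CPM in CtrV_ut and 32.4, 32.2 and 33.1 CPM in CtrV_OVA, against 16.8, 14.4 and 14.2 CPM in EKO_ut and 15.6, 14.2 and 15.4 CPM in EKO_OVA. The highest EKO library did not come near the lowest CtrV library. The log2 fold change was -1.11 ± 0.076 with OVA and -1.14 ± 0.077 without (adjusted p = 1.12e-06 and 1.14e-06, edgeR), a level 53.7% and 54.6% lower, and Atp5h was the only member with an absolute log2 fold change of at least 1.

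Most reads of Atp5h-like sequence were counted at another place. Gm10250, annotated as a processed pseudogene on chromosome 15, is a near copy of the Atp5h mRNA and was counted at 83.5, 80.7 and 92.1 CPM in CtrV_ut, 80.5, 79.6 and 77.3 in CtrV_OVA, 40.2, 37.0 and 37.5 in EKO_ut and 37.2, 34.9 and 37.0 in EKO_OVA. Its lines were as far apart as those of Atp5h, with -1.12 ± 0.056 with OVA and -1.16 ± 0.056 without (adjusted p = 1.19e-07 and 1.14e-07, edgeR). Of the 486 coding bases of Atp5h, 482 could be aligned to Gm10250 with 2 differing bases and 1 gap. The first 120 coding bases of both are printed to show how little separates them. They hold 1 difference, in capitals, which is C69T, counted from 1 at the start codon, with the Atp5h base first. The sequences are from GENCODE M21 transcripts on GRCm38.
Atp5h: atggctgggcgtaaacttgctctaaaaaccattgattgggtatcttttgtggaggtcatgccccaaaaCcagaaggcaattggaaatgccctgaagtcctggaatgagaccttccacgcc
Gm10250: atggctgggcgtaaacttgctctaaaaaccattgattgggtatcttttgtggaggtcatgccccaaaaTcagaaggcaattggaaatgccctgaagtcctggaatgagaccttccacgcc
Reads from one cannot be assigned with certainty when they miss the differing bases, and the aligner was set to report 1 place for reads that fit equally well in several. When the counts of Atp5h and its near copies were added, the log2 fold change with OVA was -1.12 ± 0.059 (adjusted p = 1.72e-07, edgeR), so the difference is in the sum of both.

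The ring of c subunits, through which protons turn the enzyme, is encoded by Atp5g1, Atp5g2 and Atp5g3, which give the same mature protein. Atp5g3 had 199, 197 and 229 CPM in CtrV_ut and 186, 199.8 and 201 CPM in CtrV_OVA, against 168, 154 and 155 CPM in EKO_ut and 155, 162 and 157 CPM in EKO_OVA. All EKO libraries were lower than all CtrV libraries. The log2 fold changes were -0.31 ± 0.066 and -0.39 ± 0.066 (adjusted p = 0.0028 and 0.000736, edgeR). Atp5g1 fell as well (-0.21 and -0.25, adjusted p = 0.0348 and 0.0142, edgeR), with 60.6% of its summed counts in a copy. Its call was lost under 5 of 24 alternative fits with OVA (up to 0.145 without EKO_OVA replicate 3) and 4 without (up to 0.0806 without EKO_ut replicate 3). Atp5g2 had -0.09 with OVA (adjusted p = 0.728, edgeR), with 99.2% of its summed counts in copies. For the subunit groups that follow, 25.1% of all genes rose and 21.9% fell with OVA, and 24.5% rose and 21.9% fell without. In the catalytic F1 head (5 members), 0 rose and 2 fell with OVA, Atp5d and Atp5e of its central stalk, each with a call lost under 5 of 24 alternative fits (adjusted p up to 0.131 without CtrV_OVA replicate 1 and 0.137 without EKO_OVA replicate 3). Without OVA only Atp5d fell, and Atp5e had -0.12 ± 0.061 (adjusted p = 0.141, edgeR). The catalytic and structural head subunits Atp5b and Atp5a1 had 0.01 ± 0.048 and -0.03 ± 0.050 (adjusted p = 0.854 and 0.677, edgeR). Of the 9 stalk and membrane members, which count Atp5o under both identifiers, 0 rose and 4 fell with OVA and 6 fell without. The 6 include both Atp5o identifiers. Atp5mpl fell with OVA alone (-0.23), and its call was lost under 10 of 24 alternative fits. Among the 9, Atp5k, a membrane subunit known for holding ATP synthase dimers, had -0.29 ± 0.063 with OVA and -0.29 ± 0.063 without (adjusted p = 0.00315 and 0.00364, edgeR).

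**Figure D2:**
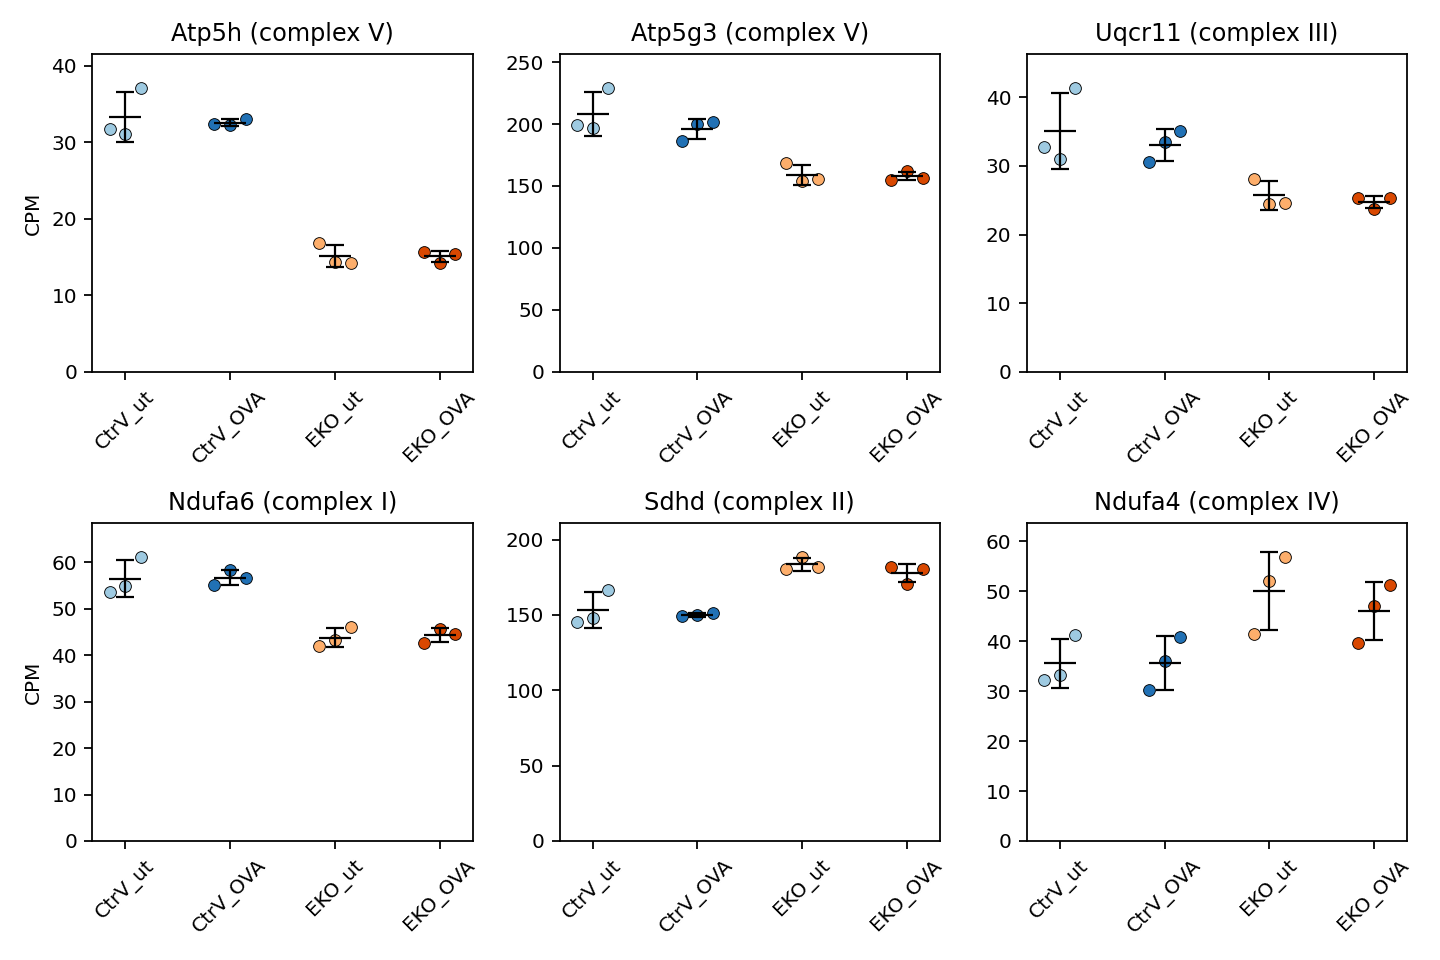
CPM (y axis) of 6 members in the 3 libraries of each group (points), with the mean and SD as bars. Atp5h, Atp5g3, Uqcr11 and Ndufa6 were lower in all EKO libraries than in all CtrV libraries, Sdhd was higher in all of them, and Ndufa4 overlapped between CtrV_OVA (up to 40.9 CPM) and EKO_OVA (from 39.7 CPM).

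Levels between genes were compared as mean CPM per kilobase of exon over the 12 libraries. The highest member was Atp5a1 with 227, then Atp5b with 212, both of the catalytic head. Cox4i1 (171) and Cox8a (164) led complex IV, Sdhd (135) complex II, Ndufa2 (126) complex I and Uqcr10 (101.3) complex III. Sdhd thus had more CPM per kilobase than its partners Sdha (53.3), Sdhb (32.0) and Sdhc (13.2). The lowest values of complexes I and V, Ndufab1 (1.03), Atp5g2 (0.687) and Atp5l (1.37), belong to genes with most of their summed counts in near copies, so their own level is uncertain.

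Summed over complexes, the lines were close. All members together had 7449 ± 569 CPM (SD, n = 3) in CtrV_ut, 7263 ± 217 in CtrV_OVA, 7002 ± 59.1 in EKO_ut and 6972 ± 45.5 in EKO_OVA. All 6 EKO libraries lay below all 6 CtrV libraries, and the gap between 7055 and 7069 CPM at the border was narrow. Complex V had 2795 to 3147 CPM in CtrV and 2658 to 2760 CPM in EKO. Complex I had 1659 to 1924 CPM in CtrV and 1606 to 1648 CPM in EKO, and for both complexes the lines did not overlap. Complex IV had 1244 to 1464 CPM in CtrV and 1166 to 1248 CPM in EKO, which overlapped. Complexes II (479 to 532 CPM against 493 to 520.0 CPM) and III (736 to 853 CPM against 751 to 791 CPM) overlapped too. These sums are descriptions and carry no test, and an abundant gene weighs more in them than a rare one. In bulk RNA, fewer cells with a given transcript and less of it in each cell cannot be told apart.

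**Figure D3:**
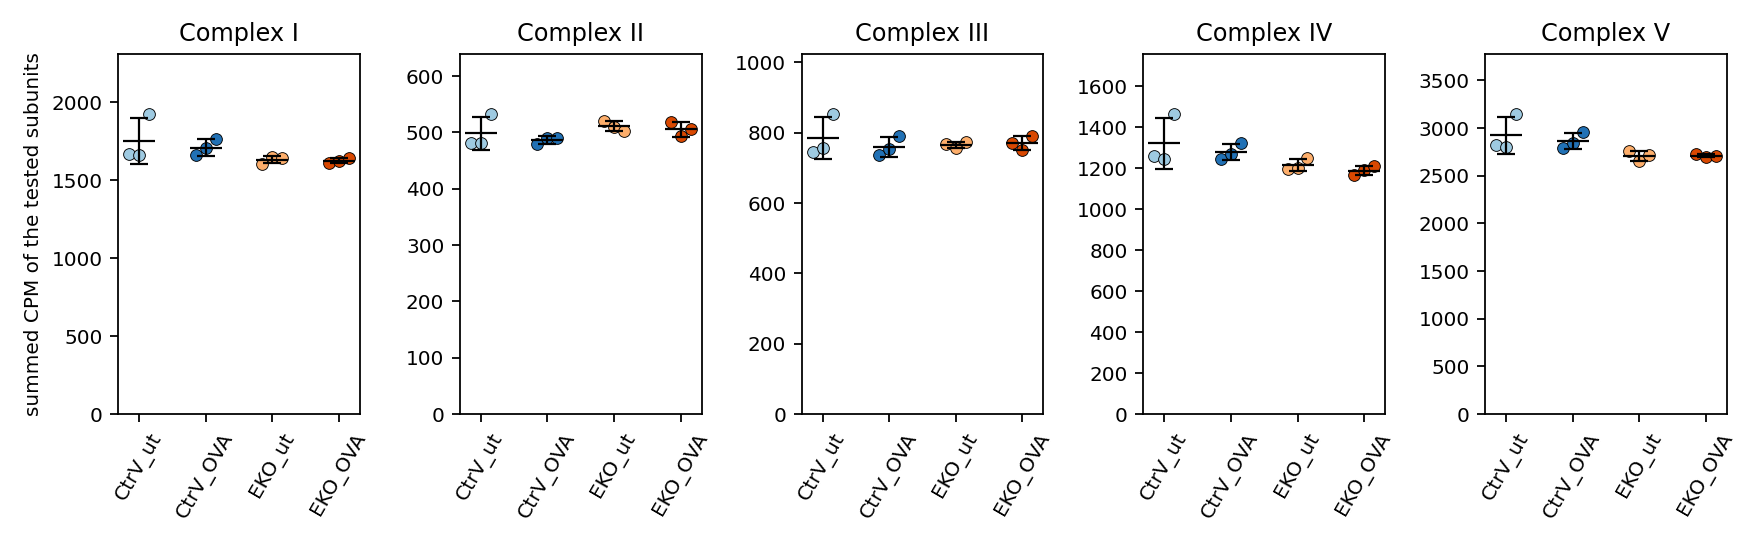
Summed CPM (y axis) of the tested members of complexes I to V in each library (points), with the mean and SD of the 3 libraries of each group. CtrV_ut replicate 3 is the highest library in every panel, and the EKO libraries lie below all CtrV libraries in complexes I and V and overlap them in complexes II, III and IV.

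Pulsing with OVA was compared within each line. Of the 14079 genes, 0 passed an adjusted p under 0.05 in CtrV or in EKO cells (edgeR), so 0 members did, and an unadjusted p under 0.05 was reached by 231 genes (1.64%) in CtrV, 0 of them members, and by 394 genes (2.8%) in EKO, 1 of them a member. The median of the members was -0.05 in CtrV, where 78 of 89 had a negative value, and -0.01 in EKO. Leaving out CtrV_ut replicate 3 turned the CtrV median to 0.01. The dependence of the difference between lines on pulsing passed for 0 genes, with an unadjusted p under 0.05 for 269 genes (1.91%) and for 0 members (edgeR). For the members its median was 0.03, which was -0.03 without CtrV_ut replicate 3 and 0.003 without EKO_ut replicate 3, and the values ranged from -0.25 (Cox7a1) to 0.19 (Ndufaf8).

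Copies in the genome touch many members. Of the 89, 25 had at least 1 near-identical copy among annotated genes (at least 95% identity over at least 100 bases and 50% of the copy's exon bases), 52 copies in all. For 20 members over 10% of the summed counts lay in copies, and for 11 over 50%. The latter were Atp5g2 (99.2%), Atp5l (93.0%), Ndufs5 (81.7%), Ndufab1 (81.2%), Atp5h (71.9%), Atp5g1 (60.6%), Cycs (58.1%), Ndufb4 (57.7%), Cox5b (51.6%), Uqcrb (50.8%) and Ndufs3 (50.4%). The copy with the highest count was Gm10175 on chromosome 7, which matches Atp5g2 over all 441 coding bases and was counted at 152 CPM, against 1.15 CPM for Atp5g2. Adding the copies to their members changed 1 call with OVA and 1 without. One Atp5o identifier (ENSMUSG00000022956) then passed as lower with OVA (-0.17, adjusted p = 0.0366) and Cox5b as lower without OVA (-0.19, adjusted p = 0.0336, edgeR), for totals of 6 higher and 28 lower with OVA and 4 higher and 34 lower without. Overlap with a gene on the other strand covered over 20% of the exon bases of 4 members, Ndufa13 (30.0%), Ndufb6 (39.0%), Ndufaf2 (65.6%) and Atp5o ENSMUSG00000022956 (35.6%), and the strand setting of the counting is not given in the sources used here.

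**Figure D4:**
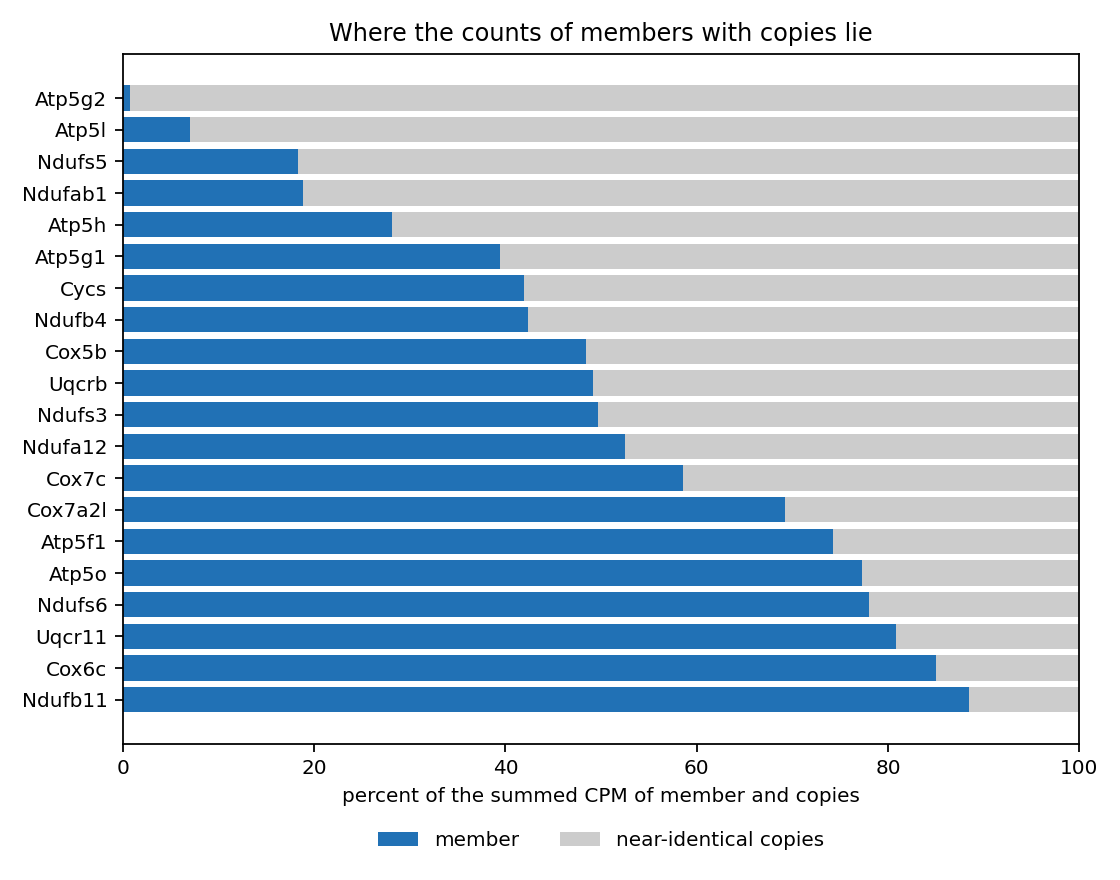
Share of the summed CPM (x axis, percent) counted at the named member and at its near-identical copies. Of the 25 members that have a copy, the 20 with the largest share in copies are shown. Of the bars, 11 have the larger share in the copies, from 50.4% for Ndufs3 to 99.2% for Atp5g2, with 71.9% for Atp5h.

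Promoter sequence was looked at because most calls had a common direction. RefSeq promoter windows of 300 bases (250 before the start and 50 after, GRCm38.p6) were matched for 74 of 88 member symbols, 72 by symbol and 2 by a synonym. The motifs of 3 factors known for respiratory chain promoters were searched on both strands, and none of the 3 contains another. The consensus motif of NRF1 was in 19 of 74 members (25.7%), against 5.19% of all 27025 genes with a window. The YY1 letters AAGATGGCG were in 8 of 74 (10.8%, against 1.64% of all genes). The ETS letters CCGGAAGT, bound by the family of NRF2 (GABP), were in 5 of 74 (6.76%, against 4.31%), namely Atp5h, Cox8a, Ndufs3, Uqcr11 and Uqcrh. Among the 24 members with a window that fell in both states, 6 held the NRF1 motif, 4 the ETS and 3 the YY1 letters. Of the 36 that passed in neither state, 10 held the NRF1 motif, 1 the ETS and 1 the YY1 letters, and of the 3 that rose, 1 held the NRF1 motif and 0 the others. The 150 bases before the start are printed for the 5 members that passed in the same direction under each of these fits and hold such a match there, chosen after their values were seen. Capitals mark the motifs, which are the NRF1 and then the ETS motif in Atp5h (141 and 39 bases before the start), the ETS motif in Uqcr11 (66 bases before) and Uqcrh (11 bases before), and the NRF1 motif in Atp5k (50 bases before) and Sdhd (79 bases before). All 5 genes lie on the minus strand, the sequences run in the direction of the gene, and the ETS matches in Atp5h and Uqcrh are the reverse complement of the letters above. The start is that of RefSeq, which differs from the GENCODE gene positions given above for Atp5h, Uqcr11 and Sdhd. The last bases of the Atp5h stretch, with its ETS match, and of the Uqcr11 stretch lie within those gene positions.
Atp5h, chr11:115419920-115420069: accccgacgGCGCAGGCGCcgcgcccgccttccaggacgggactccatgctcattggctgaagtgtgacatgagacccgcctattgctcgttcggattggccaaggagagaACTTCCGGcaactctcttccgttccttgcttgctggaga
Atp5k, chr5:108434400-108434549: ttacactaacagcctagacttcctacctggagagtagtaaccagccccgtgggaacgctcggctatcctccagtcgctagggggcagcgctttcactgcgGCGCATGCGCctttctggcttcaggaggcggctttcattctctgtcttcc
Uqcr11, chr10:80406822-80406971: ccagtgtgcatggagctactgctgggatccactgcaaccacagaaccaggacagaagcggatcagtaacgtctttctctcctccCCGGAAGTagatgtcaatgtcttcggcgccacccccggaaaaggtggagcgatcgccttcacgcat
Uqcrh, chr4:116075071-116075220: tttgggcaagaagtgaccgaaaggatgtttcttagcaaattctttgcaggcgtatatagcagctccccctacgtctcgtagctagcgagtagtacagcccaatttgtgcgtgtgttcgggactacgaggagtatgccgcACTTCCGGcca
Sdhd, chr9:50603850-50603999: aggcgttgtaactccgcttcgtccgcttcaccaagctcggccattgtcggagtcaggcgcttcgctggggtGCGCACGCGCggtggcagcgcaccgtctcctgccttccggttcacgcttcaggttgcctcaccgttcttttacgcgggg
Sdhd, which rose, and Atp5h and Atp5k, which fell, all hold the NRF1 motif. A match is a string of letters, and binding was not measured.

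Other genes of the pathway were counted in fixed lists. Of the 13 subunits encoded in mitochondrial DNA, 9 were tested, and 1 rose and 0 fell with OVA. This was mt-Co1, the catalytic subunit of complex IV, with 4829, 4795 and 4459 CPM in CtrV_ut, 4801, 4244 and 4225 in CtrV_OVA, 5777, 6320.0 and 5240.4 in EKO_ut and 5499.8, 5059 and 5366 in EKO_OVA. All 6 EKO libraries lay above all CtrV libraries, with 0.27 ± 0.070 and 0.30 ± 0.070 (adjusted p = 0.01 and 0.00534, edgeR). mt-Nd3 of complex I fell without OVA (-0.33 ± 0.074, adjusted p = 0.00417, edgeR). mt-Atp6, mt-Atp8, mt-Co2 and mt-Co3 were counted at means of 0.0627 to 0.345 CPM, far below the others, and give no level here. The mitochondrially encoded subunits took 1.05% to 1.22% of the counts in CtrV and 1.11% to 1.29% in EKO, which overlap.

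Of 51 assembly factors of complexes I to V, 13 rose and 9 fell with OVA (25.5% and 17.6%, against 25.1% and 21.9% of all genes) and 11 and 7 without (21.6% and 13.7%, against 24.5% and 21.9%), which is near or below the background. Cox17, which delivers copper to complex IV, rose from 55.0 ± 3.91 CPM (SD, n = 3) to 103 ± 2.04 CPM (0.91 ± 0.100, adjusted p = 3.5e-05, edgeR). Tmem70, an assembly factor of ATP synthase, rose (0.79), and Nubpl, which inserts iron-sulfur clusters into complex I, fell (-0.57). Of 18 TCA cycle enzymes, 5 rose and 4 fell with OVA (27.8% and 22.2%, near the background) and 4 and 5 without. Idh2, the NADP-dependent isocitrate dehydrogenase, fell from 105 ± 9.15 to 66.1 ± 5.33 CPM (-0.67 ± 0.062, adjusted p = 1.02e-05, edgeR), Fh1 (fumarase) fell (-0.50) and Pdhx of pyruvate dehydrogenase rose (0.76). Of 19 biogenesis regulators, 2 rose and 6 fell (10.5% and 31.6%) and 1 and 8 without (5.26% and 42.1%), among them Polg2 of the mitochondrial DNA polymerase (-0.52) and the deacetylase Sirt3 (-0.48). Of 24 inner membrane and antioxidant genes, 5 rose and 7 fell (20.8% and 29.2%) and 4 and 9 without (16.7% and 37.5%), with the peroxidases Gpx4 (-0.37) and Gpx1 (-0.27) lower and Gpd2 (0.44), the glycerol-3-phosphate shuttle enzyme, higher. Of 77 mitochondrial ribosomal proteins, 15 rose and 13 fell (19.5% and 16.9%, both under the background) and 11 and 20 without (14.3% and 26.0%), with a median of -0.02 with OVA. Cytosolic ribosomal proteins, abundant short mRNAs outside mitochondria, had 0 higher and 22 lower of 83 with OVA (26.5% lower) and 1 higher and 27 lower without (32.5% lower), and medians of -0.12 and -0.13, close to those of the members. What the members and the cytosolic ribosomal genes share was not tested.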

How the data were processed

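RNA sequencing of 12 Sp37A3 libraries was analysed, with groups and replicate numbers from the sample labels. The deposited table holds unnormalized read counts for each gene, which the authors made by aligning to mm10 with STAR, reporting 1 location for equal hits, and counting read ends on each gene's exon union with featureCounts and an Ensembl model. Normalization and filtering are not in the deposited counts and were applied here. Of 55401 genes, 28881 had a count and 14079 passed the filter (log2 CPM over 0 in 2 or more libraries). Symbols, positions and exon lengths came from GENCODE M21 on GRCm38, which is not the authors' annotation, and 260 identifiers had no entry. No column was left unused.

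Differences were tested in R 4.3.3 by the quasi-likelihood method of edgeR 4.0.16 after TMM scaling, fitted to all 12 libraries, with group and replicate number as terms, and Benjamini-Hochberg adjustment over the 14079 genes at 0.05. The common dispersion was 0.00590. Same-group libraries were further apart than counting error allows (chi-square per degree of freedom 4.85 to 45.3), so none was taken as a duplicate. CPM is per library size after TMM. Copies were found with blastn 2.17.0 among GENCODE transcripts, and printed sequences were aligned with Biopython 1.88. Promoter windows came from RefSeq (GRCm38.p6).

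The members, gene lists, tests and alternatives were chosen with earlier results of these data known. Members named are, for each complex, up to 3 with the largest and 3 with the smallest change among those that passed with OVA and had the same sign in all 3 replicate pairs, the complex II subunits, Cyc1, Cycs, tissue isoforms, those highest and lowest per kilobase and those nearest the filter. Siglece, the mitochondrially encoded genes and up to 3 genes in each direction of each other list follow the same rule, and members named beyond it, grouped by role or printed as sequence were chosen after their values were seen. Alternatives were DESeq2 1.42.0, limma 3.58.1 voom, upper-quartile and RLE normalization, library sizes without mitochondrial genes, the bias-adjusted edgeR fit, other filters and thresholds, no replicate block, only the compared libraries, each library left out, and, added after seeing the data, the counts of near copies added to the member and replicate 1 of both EKO groups left out. The steps were tested on simulated data. Single values of 1 member are not reported here.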

Additional observations from a re-analysis of the deposited data

How the results depend on the processing

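The number of members higher in unpulsed EKO cells, 4, was 2 with DESeq2, with upper-quartile normalization, with no filter on low counts, with no replicate block, with only the 6 compared libraries, and at an adjusted p under 0.01. Of all genes, 3448 of 14079 were higher in the main fit. The first 5 of these alternatives had 3055, 2910, 3445 (of 28881), 2820 and 2546. All-gene counts at the limit of 0.01 are not given here. The number of members was also 2 (3204 of all genes) without replicate 1 of both EKO groups, a setting added after seeing the data. There the averaged comparison had 5 members higher (3977 of all genes). The 33 lower members (3089 of all genes) were 20 with only the 6 compared libraries (2252 of all genes) and 21 at an adjusted p under 0.01. At that limit 3 were higher and 15 lower with OVA, and 6 were higher in the averaged comparison. The averaged comparison also had 6 higher with upper-quartile normalization (3790 of all genes). A limit of at least 1 on the absolute log2 fold change left 0 higher and 1 lower, Atp5h, in all 3 comparisons.

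Leaving out 1 library at a time gave 3 to 10 higher and 14 to 33 lower members with OVA, 2 to 7 higher and 21 to 33 lower without OVA, and 7 to 13 higher and 32 to 45 lower in the averaged comparison. Of all 14079 genes, these fits gave 2641 to 3712 higher and 2408 to 3287 lower with OVA. They gave 2859 to 3413 and 2485 to 3136 of all genes without OVA, and 3883 to 4330 and 3711 to 4072 averaged. The median of members for OVA-pulsed against unpulsed EKO cells, -0.01, ranged from -0.041 without EKO_ut replicate 3 to 0.018 without EKO_OVA replicate 3. Over all alternative fits and all members, 4272 values were recomputed: 4011 stayed on their side of the threshold, 97 of them with a changed sign in a member that did not pass, 68 gained significance, 193 lost it and 0 of those called changed sign.

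The replicate number was a covariate, as in the methods of the study. Deviations of same-numbered libraries of the lines had correlations of 0.448, 0.292 and 0.289 with OVA and 0.060, -0.012 and 0.263 without, so the number does not mark a pairing throughout. Between pulsed and unpulsed libraries of the same number, they were 0.706, 0.351 and 0.411 in EKO and 0.077, 0.179 and 0.373 in CtrV. With no replicate block, 5 members were higher and 21 lower with OVA, 2 and 28 without OVA, and 9 and 39 in the averaged comparison. Of all 14079 genes, 2882 were then higher and 2531 lower with OVA, 2820 and 2517 without, and 3850 and 3627 averaged. For OVA against unpulsed cells and for the dependence on pulsing, DESeq2 and limma voom also called 0 of the 14079 genes, with an unadjusted p under 0.05 for 44 (CtrV), 156 (EKO) and 103 (dependence) genes with DESeq2 and for 246, 423 and 297 with voom.

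Depth limits Cox7a1 and Atp5g2, near 1 CPM, and the 7 untested members. A level of 3 counts, taken as the smallest visible, was 0.0784 to 0.110 CPM and covers counting error only.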
